A study of Mus musculus with 2 samples.

Results

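Dual-specificity phosphatases and the Sprouty and Spred proteins are the main inducible brakes on MAP kinase signalling, and 10 of their genes were examined here in activated CD4+ T cells cultured without or with IL-27. The genes were Dusp1, Dusp2, Dusp4, Dusp5, Dusp6, Dusp10, Spry1, Spry2, Spred1 and Spred2, taken by name, and a probe set was used when its annotation held exactly 1 gene symbol equal to one of them. This gave 13 probe sets for 8 genes, of 11807 genes in all. Dusp4 and Dusp5 were not analysed here, as no probe set met that rule.

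Engagement of the T cell receptor activates the kinases ERK, JNK and p38. Dual-specificity phosphatases of the MAP kinase phosphatase class remove the activating phosphates from both the threonine and the tyrosine of these kinases. Sprouty and Spred proteins act higher up, between receptors, Ras and Raf. Many of these genes are themselves induced by ERK signalling, so their transcripts are often read alongside the activity of the pathway.

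The series holds 2 arrays, 1 per group. Both groups were naive CD4+ T cells taken from female C57BL/6J mice, from the spleen and the lymph nodes, and activated for 60 h with anti-CD3 and anti-CD28 antibodies bound to the plate, while the ages of the mice and any pooling of animals are not stated in the labels. The untreated culture received no IL-27, and the other received recombinant mouse IL-27 at 25 ng/ml, a cytokine whose receptor, built from the products of Il27ra and Il6st, activates STAT factors. The study compared them to find transcription factors induced by IL-27. With 1 array per group there was no replicate, no test was possible, so every difference below describes 2 arrays. The number of arrays limits the precision.

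Values are RMA intensities on a linear scale, as deposited. A difference is the log2 intensity on the IL-27-treated array minus that on the untreated array. A gene with several probe sets is represented by the one with the highest mean log2 intensity. A background floor was set at an intensity of 24.8, the 95th percentile over genes of other tissues, and 6877 genes lay over it on 1 or both arrays. A gene was called at a 2-fold difference. Intensities of different probe sets depend on the probes, so levels are compared between the arrays and never between genes.

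All 8 measured genes of a CD4+ T cell marker list, among them Cd4 and Cd3e, were above the floor on both arrays and within 2-fold. Of 31 measured markers of other cell types 8 were above it. Cd8b1 (119.3 and 176.5 on the untreated and IL-27-treated arrays) and Cd68 (54.9 and 27.5) gave signal, Cd79b, Csf1r and Pecam1 were at most 26.4 and so close to the floor, and Vim, which T cells also express, was at 6321 and 3690. Other defining markers of the same types, Cd8a, Cd79a, Ms4a1, Adgre1 and Ncr1, were below the floor on both arrays. Of the 5 NK cell markers, Klrd1 (114.2 and 16.4) and Klrk1 (68.2 and 14.7) were above the floor on the untreated array only. Ncr1, Klrb1c and Klra7 were below it on both arrays and hardly differed. The summed intensity of the 5 was 216.6 on the untreated array and 64.8 on the IL-27-treated array. The gap thus rests on Klrd1 and Klrk1, and the lower sum is made of values below the floor. Known targets raised by IL-27 went against the label. Socs3 had intensities of 1122 on the untreated and 185.8 on the IL-27-treated array, where Prdm1 was lower by at least 7.64-fold and Il10 by at least 1.90-fold. Directions below therefore follow the labels as given, and the part that any of these patterns has in the values below was not tested.

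Of the 8 measured members, 7 were above the floor, on both arrays in each case, and 0 of these 7 were called. Over all genes above the floor, 1.5% were called higher and 2.73% lower on the IL-27-treated array, and read against these small shares a count of 0 among 7 genes is no result about the members. At 1.5-fold, Spry1 was higher and Dusp2 was lower, against 5.15% and 7.29% of all genes above the floor. The other 5 members above the floor, Dusp1, Dusp6, Dusp10, Spred1 and Spred2, were within 1.5-fold. In cells grown in bulk, fewer cells expressing a gene and less RNA per cell cannot be told apart.

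**Figure D1:**
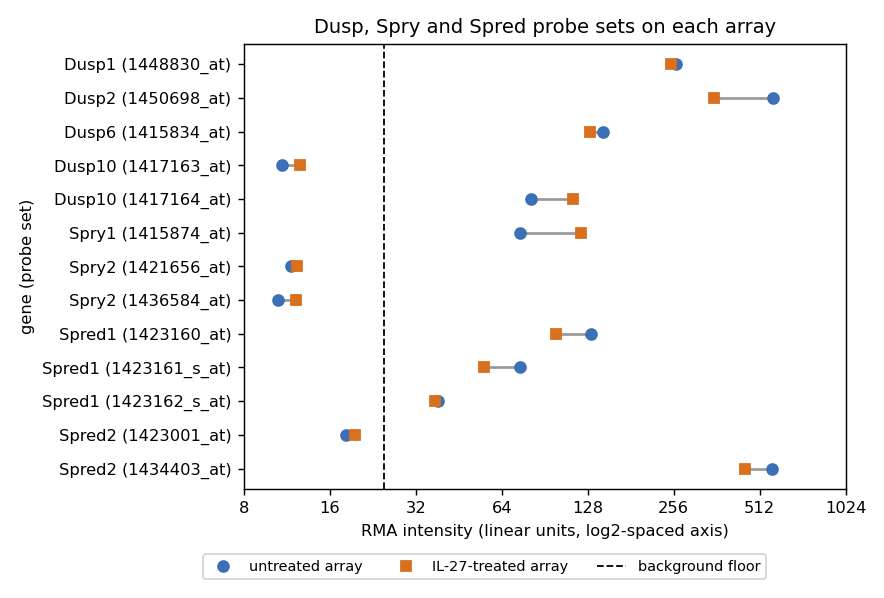
Each row is 1 of the 13 probe sets of the 8 measured members, with its RMA intensity on the untreated array (blue circle) and on the IL-27-treated array (orange square) on a log2-spaced axis, and the dashed line marks the background floor of 24.8. Dusp2 lies to the left and Spry1 to the right on the IL-27-treated array by the widest gaps, and both probe sets of Spry2 lie below the floor.

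The upstream sequences of 3 members are shown: Dusp2 and Spry1, which differed most and in opposite directions, and Dusp1, the only measured member whose window held one of the searched motifs. Each is the 250 bases before the start site annotated by RefSeq on GRCm38.p6, 5′ to 3′ on the strand of the gene, and capitals mark a full cyclic AMP response element, TGACGTCA, the site of CREB-family factors. Dusp2 lies at chr2:127335909-127336158 on the plus strand, Spry1 at chr3:37639697-37639946 on the plus strand and Dusp1 at chr17:26508473-26508722 on the minus strand.
Dusp2: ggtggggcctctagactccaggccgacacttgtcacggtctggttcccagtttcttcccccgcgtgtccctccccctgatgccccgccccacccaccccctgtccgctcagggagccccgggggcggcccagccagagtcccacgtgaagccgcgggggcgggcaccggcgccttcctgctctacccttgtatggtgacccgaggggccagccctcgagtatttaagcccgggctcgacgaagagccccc
Spry1: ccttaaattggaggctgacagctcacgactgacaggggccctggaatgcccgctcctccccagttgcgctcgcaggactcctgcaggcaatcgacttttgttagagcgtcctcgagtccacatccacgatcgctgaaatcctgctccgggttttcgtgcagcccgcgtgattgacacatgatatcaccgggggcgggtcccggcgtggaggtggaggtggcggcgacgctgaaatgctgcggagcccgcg
Dusp1: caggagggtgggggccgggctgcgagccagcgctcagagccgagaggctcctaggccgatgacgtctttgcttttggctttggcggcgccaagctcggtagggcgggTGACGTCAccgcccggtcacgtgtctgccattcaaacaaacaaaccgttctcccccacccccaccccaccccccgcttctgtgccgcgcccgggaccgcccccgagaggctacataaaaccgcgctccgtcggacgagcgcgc

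The RefSeq table held windows for 9 of the 10 members, all but Dusp4, and these were searched on both strands for 6 motifs. In Dusp1 the cyclic AMP response element lay 143 to 136 bases before the start, and 1.55% of all 32851 windows of the same length hold that motif. The STAT motif TTCNNNGAA was found in 0 of the 9 windows and in 7.02% of all windows. The AP-1 motif TGANTCA (6.75% of all windows), the ETS motif CCGGAAG (6.91%) and the Egr motif GCGTGGGCG (0.536%) were also found in 0 of the 9. The CArG box of serum response factor, held by 1.47% of all windows, was found in the window of Dusp5, which was not analysed for expression. A missing match says only that these letters are not in this stretch.

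Among the phosphatases of the 7 members above the floor, Dusp2 had the largest difference. Dusp2, also known as PAC-1, is a nuclear phosphatase of ERK and p38 that is induced when lymphocytes are activated. Its only probe set, 1450698_at, had an intensity of 570.8 on the untreated array and 354.0 on the IL-27-treated array, a difference of -0.69 or 1.61-fold lower. That placed it among the lower genes, since 371 of the 6877 genes above the floor (5.39%) had a difference at least as negative.

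Dusp1, or MKP-1, is the nuclear phosphatase best known for acting on p38 and JNK. Its probe set 1448830_at read 260.4 on the untreated array and 250.1 on the IL-27-treated array. The difference of -0.06 was small, and 84.9% of genes above the floor were at least as far from 0. The pair of nuclear phosphatases with values thus differed in extent between the arrays, Dusp2 being 1.61-fold and Dusp1 1.04-fold lower.

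Dusp6, or MKP-3, is a cytoplasmic phosphatase specific for ERK, and its transcript is widely used as a readout of ERK activity. Its probe set 1415834_at read 144.9 and 130.6 on the untreated and IL-27-treated arrays. The difference of -0.15 lay within the middle 50% of all genes above the floor, which spanned -0.20 to 0.22.

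Dusp10, or MKP-5, acts on JNK and p38 rather than ERK. It was the only phosphatase among the members with a positive difference. Its brighter probe set, 1417164_at, read 81.1 on the untreated array and 113.8 on the IL-27-treated array, a difference of 0.49 or 1.40-fold higher. The other probe set, 1417163_at, was below the floor on both arrays at 10.9 and 12.6 and gives no second reading.

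Of the Sprouty genes, Spry1 was above the floor and higher on the IL-27-treated array. Spry1 encodes an inhibitor of receptor and Ras signalling that also acts downstream of the T cell receptor. Its only probe set, 1415874_at, read 73.9 on the untreated array and 120.8 on the IL-27-treated array, a difference of 0.71 or 1.63-fold higher. This was the largest difference in either direction among the 7 members above the floor, and 219 of the 6877 genes (3.18%) had a positive difference at least as large.

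For Spry2, its close relative, neither of the pair of probe sets reached the floor on either array. They read 11.7 and 10.5 on the untreated array and 12.3 and 12.2 on the IL-27-treated array. No fold is given for such values, and Spry2 enters none of the counts or medians below.

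Spred1 and Spred2 encode membrane proteins with a Sprouty-related domain that bring neurofibromin, a GTPase activator, to Ras. Spred1 had 3 probe sets, all above the floor on both arrays. The brightest, 1423160_at, read 130.9 untreated and 99.3 with IL-27, a difference of -0.40. The next, 1423161_s_at, read 73.8 and 55.5 and gave -0.41, while 1423162_s_at, the dimmest at 38.3 and 37.3, gave -0.04. The brighter pair thus differed alike and the one nearest the floor differed by little. Probe sets with the suffix s_at can match more than one transcript.

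Spred2 also read lower. Its brighter probe set, 1434403_at, had intensities of 564.9 untreated and 456.0 with IL-27, a difference of -0.31 or 1.24-fold lower. The other, 1423001_at, was below the floor on both arrays at 18.2 and 19.5. Both Spred genes were thus on the lower side by their brightest probe sets, with Spry1 on the higher side.

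**Figure D2:**
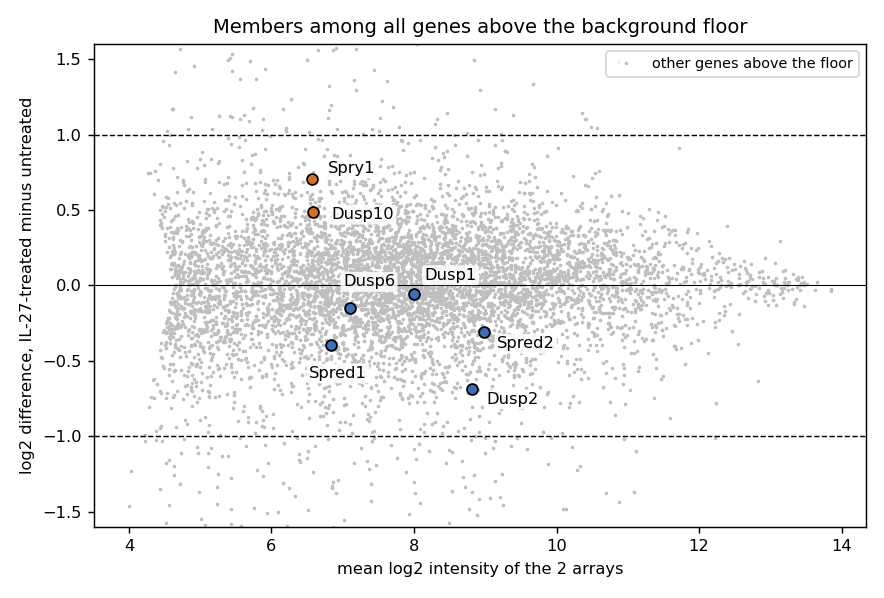
Each grey point is a gene above the background floor, by its mean log2 intensity over the 2 arrays and its log2 difference, IL-27-treated minus untreated; large points are the 7 members above the floor, orange where higher and blue where lower, and dashed lines mark 2-fold. All 7 lie between the dashed lines, from -0.69 for Dusp2 to 0.71 for Spry1, and 101 genes lie beyond the axis limits of 1.6 in either direction.

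As a group, 5 of the 7 members above the floor were lower and 2 higher on the IL-27-treated array, with a median difference of -0.15. Over all genes above the floor 47.5% were lower and the median was 0.02. The only error measure inside these data is the disagreement between probe sets of the same gene, which covers the probes and not the cultures. Over 2240 genes with several probe sets above the floor, the absolute gap between the differences of the 2 brightest had a median of 0.16 and a 90th percentile of 0.44. The differences of Spry1 (0.71), Dusp2 (-0.69) and Dusp10 (0.49) were larger in size than that 90th percentile, and those of Dusp1, Dusp6, Spred1 and Spred2 were smaller. Of all genes above the floor, 8.26% were at least as far from 0 as Spry1, 8.78% as Dusp2 and 17.7% as Dusp10. At least 17.7% of all these genes were thus past the same mark, so being past it does not set a member apart. Dusp10 was below that mark at 0.35 with the mean of its probe sets and at 0.42 with 16 added to the intensities.

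Other dual-specificity phosphatases were read from a list drawn from general knowledge. Of 15 listed genes 13 were measured and 10 were above the floor. Of these 0 were called, against 1.5% higher and 2.73% lower of all genes above the floor, so this count is no result about the list. By any amount 7 of the 10 were lower, and the median was -0.27, or -0.15 with genes below the floor included. Dusp3 was above the floor on the untreated array only, so it could count only as lower. With genes above the floor on both arrays the median was -0.26. Dusp7, a cytoplasmic ERK phosphatase of the same class as Dusp6, read 114.7 and 81.8, a difference of -0.49, and its equally bright second probe set gave -0.56. Dusp12 differed by 0.46 and Dusp14 by 0.33. Styx, a catalytically inactive relative that binds ERK, differed by 0.34, with 0.41 and 0.28 from its other probe sets above the floor. Dusp16, a JNK and p38 phosphatase named here after its values were seen for its likeness in role to Dusp10, read 133.6 and 110.2, a difference of -0.28, opposite in sign to Dusp10.

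Other feedback regulators of receptor and Ras signalling included called genes. Of 20 listed, 16 were measured and 13 were above the floor. Errfi1, which encodes MIG6, a feedback inhibitor of the EGF receptor family, read 147.0 on the untreated array and 62.3 on the IL-27-treated array, 2.36-fold lower. Rgs16, a GTPase activator that curbs G protein signalling from chemokine receptors, read 122.7 and 56.6, 2.17-fold lower, and its second probe set gave -1.22. These 2 were called lower and 0 were called higher, against 2.73% and 1.5% of all genes above the floor. Rgs16 was short of 2-fold, at -0.93, with 16 added to the intensities.

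Within that list 10 of the 13 genes were lower by any amount, with a median of -0.32, or -0.07 over all 16 measured genes. Ptpn6, the phosphatase SHP-1 that restrains T cell receptor signalling, differed by -0.58. Lrig1, an inhibitor of receptor tyrosine kinases, differed by 0.61 and by 1.04 in its second probe set, which was past 2-fold. Spry4, a Sprouty gene outside the members, and Nf1, which encodes neurofibromin, were below the floor on both arrays and were named after their values were seen. Spry3, also on the list, was not measured.

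The kinase cascade that these inhibitors act on was also read. Of 19 listed genes of the Ras, Raf, MEK and ERK cascade 11 were measured, all above the floor. Of these 0 were called, against 1.5% higher and 2.73% lower of all genes above the floor, so this count is no result about the cascade. Ksr1, the scaffold that holds Raf and MEK together, read 188.0 and 99.6, a difference of -0.92, with -0.72 from its second probe set. The adaptor Shc1 differed by -0.53 and the ERK-activated kinase Rps6ka3 by -0.49, with -0.97 from its second probe set. The Ras activator Rasgrp2, close to the floor at 33.2 on the untreated array, differed by 0.41. The list's median was -0.31, with 8 of 11 genes lower by any amount.

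In the p38 and JNK cascades, 14 of 15 measured genes were above the floor. Of these 0 were called higher and 2 lower, against 1.5% and 2.73% of all genes above the floor. Gadd45g, an activator of the upstream kinase MEKK4 that promotes p38 signalling in Th1 cells, had an intensity of 875.1 on the untreated array and 96.0 on the IL-27-treated array, 9.12-fold lower. It was the largest difference in any of the 5 related lists. Its relative Gadd45b, named after its value was seen, differed by 0.45 in the other direction.

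Map3k5, the stress-activated kinase ASK1, read 242.5 and 108.4, 2.24-fold lower. Map3k1 differed by -0.68, and Map3k7, the kinase TAK1, by 0.54 with 0.31 and 0.16 from its other probe sets above the floor. The median of the list was 0.06, near that of all genes, and it was -0.03 with the mean of each gene's probe sets. Of the members, Dusp10 and Dusp1 act chiefly on p38 and JNK, and they differed by 0.49 and -0.06.

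Immediate-early and ERK target genes differed in both directions. Of 21 listed genes 18 were measured and 13 were above the floor. Of these 1 was called higher and 3 lower, against 1.5% and 2.73% of all genes above the floor. The median was -0.25, or -0.15 with 16 added to the intensities. Egr3 was above the floor on the untreated array only, so it could count only as lower. With genes above the floor on both arrays the median was also -0.25. Ier3, an early response gene whose product binds ERK, read 1946 and 495.2, 3.93-fold lower. The AP-1 subunit gene Fosl2 differed by -1.81 and Junb by -1.01. Junb was short of 2-fold, at -0.98 and -0.99, with each array's median subtracted and with 16 added. Phlda1, an early response gene, was 6.96-fold higher, at 25.6 close to the floor on the untreated array and at 178.0 on the other. Dusp6, which is read as an ERK target in the same way, differed by -0.15, beside these differences on both sides.

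**Figure D3:**
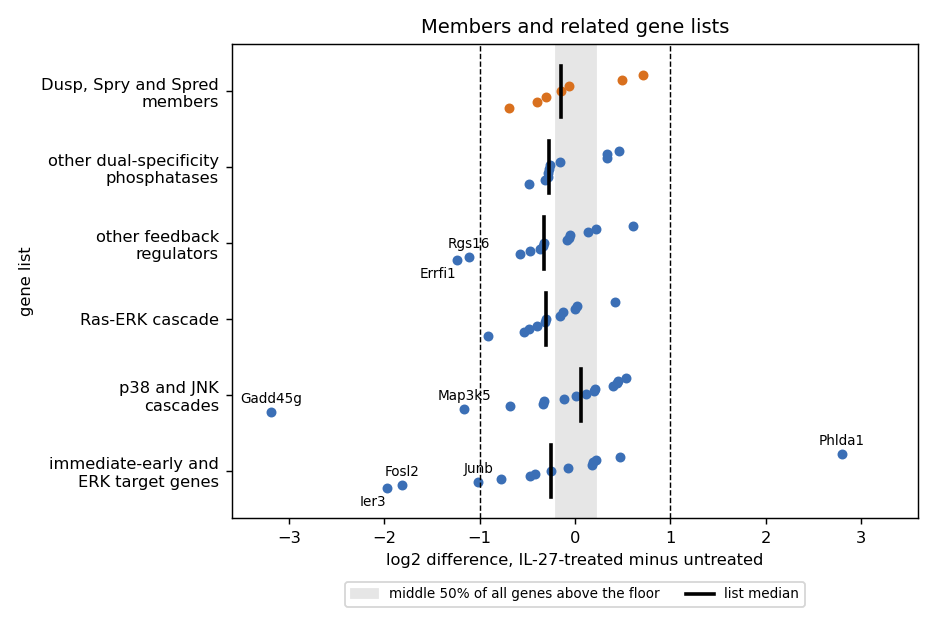
Each point is a gene above the background floor by its log2 difference, IL-27-treated minus untreated, for the members (orange) and the 5 related lists (blue); black bars are list medians, the grey band is the middle 50% of all genes above the floor, from -0.20 to 0.22, and dashed lines mark 2-fold. Named points are those past 2-fold, among which there is no member.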

How the data were processed

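Gene expression was measured on 2 arrays of mouse CD4+ T cells. Per the submitters' processing notes, the deposited intensity of each probe set was made with RMA (version and settings: not given in the sources used here), a method of background subtraction, quantile normalization and probe summary. Since it equalizes the distributions of the arrays, it hides any difference in RNA content per cell. Median intensities were 33.3 and 32.4. Per the labels, 100 ng of RNA was labelled by 3' in vitro transcription. The table has no detection calls.

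The platform annotation paired 18003 of 22716 probe sets with 1 symbol and 287 with several, and listed none for 4426. Entrez identifiers of all 8 measured members were found in a RefSeq table of GRCm38.p6, used for names alone, and promoter sequences came from a RefSeq table of that build. Intensities were taken to log2 without a pseudocount. The floor used 39 measured of 46 listed genes of other tissues. The members and lists were chosen with earlier results of these data known. Named genes were all members, up to 4 genes per list with the largest absolute difference, every list gene past 2-fold, and Socs3, Il10, Prdm1, Il27ra and Il6st as a check of the labels. The latter pair differed by -0.66 and -0.04. No genes of like pattern were named, since 2 arrays give each gene 1 difference. Alternatives were another probe set summary, other filters on dim values, 3 normalizations, a pseudocount of 16 and a 1.5-fold threshold. The calling procedure was run on simulated data in which the planted changes were well past the threshold, in genes well above the floor. Such a run checks the code alone, and holds no variation between cultures and no planted differences as small as those of the members. Python 3.11.15, pandas 2.3.3 and statsmodels 0.14.6 were used.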

Additional observations from a re-analysis of the deposited data

How the results depend on the processing

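The differences of the 7 members above the floor kept their sign in all 56 combinations of member and alternative, and 0 of these were past 2-fold. Only 31 of the 56 could differ from the reported value, since the 3 treatments of dim values leave genes above the floor on both arrays as they are, and so does the mean of probe sets where there is only 1. Spry1 ranged from 0.61 to 0.74, Dusp2 from -0.73 to -0.65, Dusp10 from 0.35 to 0.52 and Spred2 from -0.35 to -0.10, its smallest size being with the mean of its probe sets, one of which was below the floor. The median over the members ranged from -0.18 to -0.10. At 1.5-fold 1 member was higher and 1 lower, against 0 and 0 at 2-fold, and 1 of the other feedback regulators was higher and 1 gene of the Ras-ERK cascade lower, against 0 each. At that threshold 3 genes of the p38 and JNK cascades and 4 immediate-early genes were lower, against 2 and 3. Over all genes above the floor 5.15% were higher and 7.29% lower at 1.5-fold. With a pseudocount of 16, 1 of the other feedback regulators was called lower, against 2, as a pseudocount shrinks differences by construction, and 2 immediate-early genes were lower, against 3. Subtracting each array's median also gave 2, Junb being the gene lost in both cases. List medians ranged from -0.28 to -0.15 for the other dual-specificity phosphatases, from -0.37 to -0.07 for the other feedback regulators, from -0.34 to -0.27 for the Ras-ERK cascade, from -0.03 to 0.10 for the p38 and JNK cascades and from -0.25 to -0.15 for the immediate-early genes. Leaving out an array was not possible with 1 per group. No paired analysis was possible because each group has 1 array. A value was taken as unmoved within 0.289, the SD of the gap between probe sets of a gene, which holds no variation between cultures. For Spry2, signal at background limits what can be read.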

Other observations

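The classical protein tyrosine phosphatases, the other large class of phosphatases in T cell signalling, were read by symbol after the values of the members had been seen. Of 32 measured genes 16 were above the floor, 13 of them lower and 3 higher by any amount on the IL-27-treated array. The median difference was -0.27, beside 47.5% lower and a median of 0.02 over all genes above the floor. Ptpn14, Ptprf and Ptprn were above the floor on the untreated array only, so they could count only as lower. The 13 lower genes and the median include them, and no median without them was taken. At 2-fold, 1 of the 16 was lower and 0 were higher, against 2.73% and 1.5% of all genes above the floor. That gene was Ptpre, which encodes a receptor-type phosphatase, with intensities of 104.0 and 50.3 and a difference of -1.05. Its dimmer probe set read 25.9 on the untreated array and 13.6, below the floor, on the other. Ptprf, another receptor-type phosphatase, was lower by at least 1.64-fold, with an intensity of 40.8 on the untreated array and one below the floor, 24.3, with IL-27. Its second probe set, at 40.6 and 18.7, differed by -1.11 in measured values. Ptpn2, which dephosphorylates JAK and STAT proteins, read 2416 and 1599, a difference of -0.60, with -0.48 from its next probe set. Ptprs differed by 0.59 in the other direction, and Ptprc, which encodes CD45, by -0.03. Ptpn6 and Ptpn22 are also in the list of other feedback regulators, so these lists overlap. The list of tyrosine phosphatases was taken by class, the genes named from it were picked with their values in view, and 2 arrays allow no test of it.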
